A study of Mus musculus with 6 samples.

Results

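A set of 10 genes of extracellular nucleotide sensing was followed in microglia, the resident macrophages of the brain. These are the P2Y receptors P2ry12, P2ry13, P2ry6 and P2ry14, the related receptor Gpr34, the channels P2rx4 and P2rx7, the ectonucleotidase Entpd1 and the adenosine receptors Adora3 and Adora2a. The 10 members were taken by name, as receptors and an enzyme of purinergic signalling in microglia, from 49585 genes in the count files. All 10 were found, and 8 passed the filter on low counts that left 11041 genes for testing. P2ry14 and Adora2a did not pass and are given as counts.

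The libraries came from 3 WT mice and 3 mice labelled IRF8KO, all male and 3 months old, with no treatment named. IRF8 is a transcription factor of macrophages and related blood cells. The labels do not say which part of the gene was altered, whether other cells of the body carry the same change, or what strain the mice were. Microglia were taken without enzymes from individual brains and sorted by flow cytometry into TRIzol, so each library stands for 1 brain. Polyadenylated RNA was copied with the SMART-Seq v4 kit and tagged with Nextera XT, a chemistry without strand information or molecular identifiers.

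Extracellular ATP and ADP leak from active, stressed or damaged cells and tell microglia where to move and what to take up. P2Y receptors pass the signal on through G proteins, P2X receptors are ATP-gated cation channels, and CD39, the product of Entpd1, strips ATP and ADP to AMP, from which other enzymes make adenosine. P2Y12 is a hallmark of undisturbed microglia in the brain, where it steers their processes towards sources of ADP.

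Depth ranged from 3658917 gene counts in WT replicate 1 to 11098363 in IRF8KO replicate 3. Irf8 itself was counted in every library, at 795, 851 and 1403 CPM in WT, in order of replicate, and at 743, 650 and 850 CPM in the IRF8KO replicates. CPM are counts per 1000000 of the library size scaled by edgeR's TMM factor. Its log2 fold change of −0.44 (SE 0.33) was not called (adjusted p = 0.368, edgeR quasi-likelihood with Benjamini-Hochberg adjustment). A count over a whole gene does not show which exons are left, so it cannot tell the genotype, and every direction below rests on the labels. Apoe took 25.5% to 33.7% of the gene counts in the IRF8KO libraries and 0.154% to 0.324% in WT. Of 10 microglial markers, 4 were called lower, 1 higher and 5 not called. Those with the highest levels, Csf1r and Tmem119, were not called and averaged 22937 and 13491 CPM in WT and 14991 and 6558 CPM in IRF8KO, while Fcrls was called higher, at 2622 CPM in WT and 6669 CPM in IRF8KO. Cx3cr1, Slc2a5 and Sparc were called lower, at 2631, 1601 and 2796 CPM in WT and 589, 208 and 1147 CPM in IRF8KO. Sall1, also called lower, had 0 counts in the 3 IRF8KO libraries against 370 to 1797 in WT. It passed the filter through WT alone and could be called lower only. WT replicate 3 stood apart from WT replicates 1 and 2, and IRF8KO replicate 2 from the other IRF8KO libraries. Across 11034 genes, the deviation from the group mean went with the GC content of the gene with a Spearman correlation of 0.616 in WT replicate 3, against −0.515 and −0.500 in WT replicates 1 and 2. In the IRF8KO replicates 1 to 3 it was 0.371, −0.435 and 0.075. Genes are not independent, and results that rest on either library are also given without them.

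The members lie on 5 autosomes and the X chromosome of the mouse (GRCm38, GENCODE M21). P2ry12 (chr3:59216272-59262871), P2ry13 (chr3:59207892-59210882) and P2ry14 (chr3:59113855-59153618) follow each other on the minus strand, inside the longer gene Med12l on the plus strand. P2rx7 (chr5:122643911-122691432) and P2rx4 (chr5:122707544-122729738) are neighbours on the plus strand, 16.1 kb apart. P2ry6 is at chr7:100937630-100974649 (minus strand), Gpr34 at chrX:13632089-13640858 (plus strand) and Entpd1 at chr19:40612366-40741602 (plus strand). Adora3 is at chr3:105870858-105908926 (plus strand), 46.6 Mb from P2ry12, and Adora2a at chr10:75316877-75334784 (plus strand).

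The 250 bases before the RefSeq start site (GRCm38.p6) are printed for 3 members whose transcripts fell, P2ry12, P2ry13 and Adora3, and for P2rx4, whose transcript rose, so that the sequences can be set side by side. The region of P2ry12 is chr3:59262986-59263235, minus strand. That of P2ry13 is chr3:59210883-59211132, minus strand, that of Adora3 is chr3:105904171-105904420, plus strand, and that of P2rx4 is chr5:122707294-122707543, plus strand. The Adora3 region lies inside the gene span given above, so this start site is internal to the gene as counted. Capitals mark matches to the 6 motifs searched on both strands.
P2ry12: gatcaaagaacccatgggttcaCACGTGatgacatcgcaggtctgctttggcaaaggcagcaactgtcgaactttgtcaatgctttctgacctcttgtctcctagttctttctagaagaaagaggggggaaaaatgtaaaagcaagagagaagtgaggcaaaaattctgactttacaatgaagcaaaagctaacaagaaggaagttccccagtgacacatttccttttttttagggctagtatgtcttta
P2ry13: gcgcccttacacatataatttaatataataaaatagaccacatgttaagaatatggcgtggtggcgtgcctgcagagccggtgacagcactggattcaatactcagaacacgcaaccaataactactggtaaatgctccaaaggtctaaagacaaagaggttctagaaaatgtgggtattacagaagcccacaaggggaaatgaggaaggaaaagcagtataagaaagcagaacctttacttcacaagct
Adora3: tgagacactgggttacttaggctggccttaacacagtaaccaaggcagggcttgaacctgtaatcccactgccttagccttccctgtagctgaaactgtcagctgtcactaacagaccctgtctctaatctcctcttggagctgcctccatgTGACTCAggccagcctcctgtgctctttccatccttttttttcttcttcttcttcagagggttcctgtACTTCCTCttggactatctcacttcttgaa
P2rx4: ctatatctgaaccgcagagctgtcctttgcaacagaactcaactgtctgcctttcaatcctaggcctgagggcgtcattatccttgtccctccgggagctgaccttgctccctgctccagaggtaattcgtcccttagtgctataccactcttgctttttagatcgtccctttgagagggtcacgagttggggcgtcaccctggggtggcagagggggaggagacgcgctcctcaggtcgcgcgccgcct

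RefSeq's promoter table held windows of 300 bases, 250 before and 50 after a start site, for 7 members, 12 windows in all; P2ry6, Gpr34 and Adora2a are named only. The PU.1 motif GAGGAAGT was in 3.20% of 32807 windows of all genes and in 2 of the 12, 1 each for Adora3 and P2rx7. Its match in the Adora3 window is read on the minus strand and begins 30 bases before the start. The AP-1 motif TGACTCA was in 5.21% of all windows and in 3 of the 12, 1 each for Adora3, P2ry14 and P2rx7; in Adora3 it begins 98 bases before the start. The E-box CACGTG was in 7.15% of all windows and in 1 of the 12, that of P2ry12, 228 bases before the start. The ETS-IRF composite GGAANNGAA (8.25% of all windows), the interferon response element GAAANNGAA (8.55%) and the MEF2 motif TATTTATA (1.70%) had no match in the 12. The P2ry13 and P2rx4 sequences above hold none of the 6 motifs. These are matches of letters and say nothing of binding.

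In IRF8KO 5 of the 8 tested members were lower, P2ry12, P2ry13, Gpr34, Entpd1 and Adora3, where 9.46% of all tested genes were called lower. Just 1, P2rx4, was higher, where 9.64% of all tested genes were. P2ry6 and P2rx7 were tested and not called. The 3 values of each group did not overlap for 7 of the 8, beside 37.9% of all tested genes, with IRF8KO below WT for 6 (17.9% of all tested genes) and above WT for 1 (20%). The calls are those of edgeR's quasi-likelihood test at a Benjamini-Hochberg adjusted p under 0.05, fitted across the 11041 genes, of which 19.1% were called in either direction. Adora3 passed the filter through its WT counts alone, so it could be called lower only. The median log2 fold change of the 8 was −1.80, beside −0.11 over all tested genes; a filter of 10 counts in every library leaves out Adora3, and the median of the other 7 in that fit was −1.11. In bulk RNA, fewer cells that make a transcript cannot be told apart from less of it per cell.

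**Figure D1:**
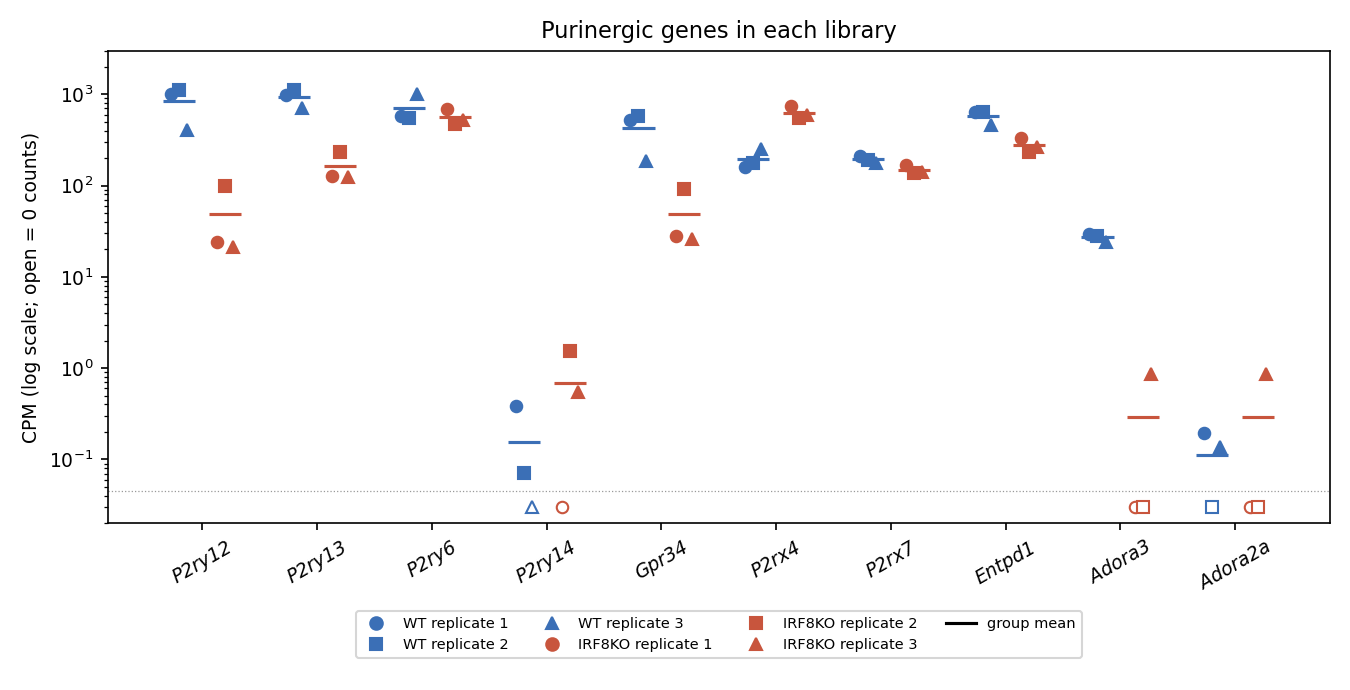
Scaled counts (CPM, log scale) of the 10 members in each of the 6 libraries; blue is WT, red is IRF8KO, symbols give the replicate, bars give the group mean and open symbols mark 0 counts. P2ry12, P2ry13, Gpr34, Entpd1 and Adora3 lie lower in all 3 IRF8KO libraries than in any WT library, P2rx4 lies higher, and P2ry6 overlaps.

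P2ry12, the ADP receptor of process movement, had the largest fitted fall among the P2Y receptors. It had 1010, 1124 and 410 CPM in WT, in order of replicate, and 24.1, 100 and 21.0 CPM in IRF8KO. The groups do not overlap, yet each has 1 library apart: WT replicate 3 had 0.384 times the mean of the other WT libraries, and IRF8KO replicate 2 had 4.44 times the mean of the other IRF8KO libraries. The mean was 848 ± 384 CPM for WT and 48.4 ± 44.8 CPM for IRF8KO (± SD, 3 mice each), and the fitted level was 17.4-fold lower (log2 fold change −4.12, SE 0.64, edgeR quasi-likelihood, Benjamini-Hochberg adjusted p = 0.00101). A larger fall was fitted for 137 of the 11041 tested genes. Without IRF8KO replicate 2 the log2 fold change was −5.22, and without that library and WT replicate 3, a setting chosen after the data were seen, it was −5.47.

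P2ry13 encodes the other ADP receptor of this pair and its WT range overlapped that of P2ry12. It had 982, 1126 and 703 CPM in WT and 128, 236 and 125 CPM in IRF8KO, in order of replicate. Again WT replicate 3 was the lowest of WT and IRF8KO replicate 2 the highest of IRF8KO, and the groups did not overlap. The mean went from 937 ± 215 to 163 ± 63.4 CPM (± SD, 3 mice each), with a fitted fall of 5.75-fold (log2 fold change −2.52, SE 0.36, edgeR quasi-likelihood, Benjamini-Hochberg adjusted p = 6.7e-04). P2ry13 thus kept 17.4% of its WT mean and P2ry12 kept 5.71%. Inside a library, where scaling cancels, P2ry12 had 1.02, 0.991 and 0.578 times the reads per exonic length of P2ry13 in WT and 0.187, 0.421 and 0.167 times in IRF8KO, in order of replicate. This ratio was lower in all 3 IRF8KO libraries than in any WT library.

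P2ry6, the UDP receptor linked to phagocytosis, was not called. It had 579, 543 and 1013 CPM in WT and 696, 472 and 517 CPM in IRF8KO, so the groups overlapped and WT replicate 3 was the highest library of the 6. The means were 712 ± 262 and 562 ± 119 CPM (± SD, 3 mice each; log2 fold change −0.34, SE 0.34, edgeR quasi-likelihood, Benjamini-Hochberg adjusted p = 0.513). The sign turned without WT replicate 3 (0.03). P2ry14, the receptor for UDP-sugars, was at very low counts, with 2, 1 and 0 counts in WT and 0, 17 and 5 in IRF8KO. The ratio of the scaled counts, IRF8KO over WT, was 7.31, with an exact 95% interval of 2.20 to 38.2 that covers counting error only, and 17 of the 22 IRF8KO counts came from 1 library.

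Gpr34, a receptor for lysophosphatidylserine that resembles P2Y12 in sequence, went the way of P2ry12. It had 523, 576 and 188 CPM in WT and 28.2, 92.4 and 25.9 CPM in IRF8KO. The groups did not overlap, and the same 2 libraries stood apart, WT replicate 3 at 0.342 times and IRF8KO replicate 2 at 3.41 times the mean of the others of their group. The mean went from 429 ± 211 to 48.9 ± 37.7 CPM (± SD, 3 mice each), a fitted fall of 8.75-fold (log2 fold change −3.13, SE 0.56, edgeR quasi-likelihood, Benjamini-Hochberg adjusted p = 0.0027). Without IRF8KO replicate 2 the log2 fold change was −3.97. Per exonic length, P2ry12 had 1.59, 1.60 and 1.79 times the reads of Gpr34 in WT and 0.700, 0.889 and 0.666 times in IRF8KO, in order of replicate, so the order of the 2 genes was the reverse in the 2 groups.

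The members differ in base composition, and so in how the trends of the libraries bear on them. The exons of Gpr34, P2ry12, P2ry13 and Entpd1 hold 37.1%, 38.6%, 44.7% and 44.7% G and C, while those of P2ry6, the member highest in WT replicate 3, hold 55.9%. A smooth trend in GC content and exonic length was fitted to each library's deviations from the mean over both groups. Its removal can therefore also take out a difference between WT and IRF8KO that goes with GC content or length. When each library's smooth trend in GC content and exonic length was taken out, P2ry12 had 671, 709 and 572 CPM in WT and 38.0, 87.9 and 26.6 CPM in IRF8KO. Corrected levels of Gpr34 were 368, 383 and 271 CPM in WT and 43.2, 77.3 and 30.7 CPM in IRF8KO, and those of P2ry13 were 762, 830 and 965 CPM in WT and 166, 215 and 135 CPM in IRF8KO. WT replicate 3 came closer to the other WT libraries for P2ry12 and Gpr34, but moved from 0.725 to 1.44 times their mean for Entpd1 and from 1.495 to 2.25 times for P2rx4. After the correction the groups did not overlap for P2ry12, Gpr34 and P2ry13. Nor did they for P2ry6, which overlapped as measured: it had 737, 650 and 844 corrected CPM in WT and 578, 503 and 463 in IRF8KO, and was not called with the trend as an offset (log2 fold change −0.53, edgeR quasi-likelihood, adjusted p = 0.072). With the trend as an offset in the fit, the log2 fold changes were −3.67 for P2ry12, −2.76 for Gpr34 and −2.31 for P2ry13. P2ry12, Gpr34 and P2ry13 stayed called in that edgeR quasi-likelihood fit, as did Adora3 at −6.29 and P2rx4 at 1.87.

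**Figure D2:**
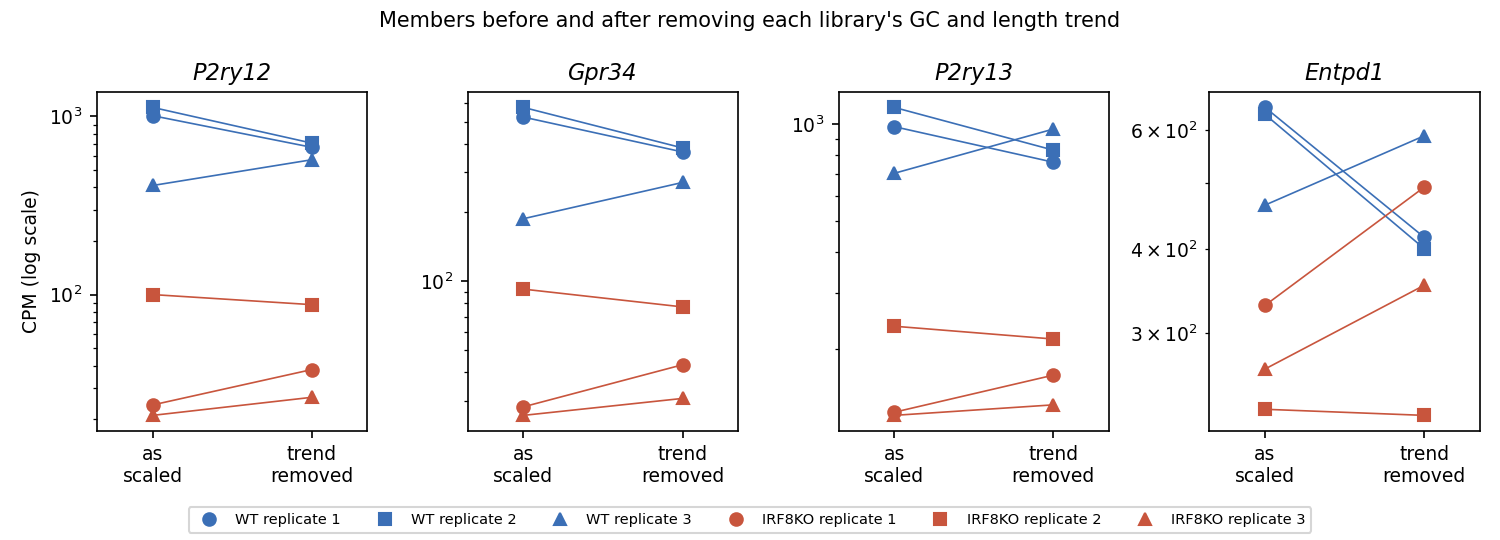
CPM (log scale, a separate range in each panel) of P2ry12, Gpr34, P2ry13 and Entpd1 in each library, as scaled and after removal of the library's smooth trend in GC content and exonic length; blue is WT, red is IRF8KO and lines join a library's values. The groups stay apart for P2ry12, Gpr34 and P2ry13, while for Entpd1 IRF8KO replicate 1 moves to 493 CPM, above WT replicates 1 and 2.

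Counts of genes that respond to the handling of cells also differed between these libraries. The summed level of 12 immediate early and heat shock genes was 5474, 10737 and 717 CPM for WT and 929, 682 and 831 CPM for IRF8KO, in order of replicate. WT replicates 1 and 2, which had the most P2ry12, Gpr34 and P2ry13, also had the most of these, and the sum of WT replicate 3 lay within the IRF8KO range, though single genes such as Fos, with 1 count in that library and 125 to 162 in IRF8KO, did not. Of the 11 tested, 9 were called lower in IRF8KO; Junb, Btg2 and Dusp1 were the most abundant. Their part in the results was not tested.

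P2rx4, an ATP-gated channel found largely in lysosomes of microglia, was the member that rose. It had 158, 176 and 250 CPM in WT and 747, 552 and 595 CPM in IRF8KO. The lowest IRF8KO library stood above the highest WT library. The mean rose from 195 ± 48.6 to 632 ± 103 CPM (± SD, 3 mice each), 3.25-fold in the fit (log2 fold change 1.70, SE 0.31, edgeR quasi-likelihood, Benjamini-Hochberg adjusted p = 0.0029). The lowest value of any alternative was 1.22, with library size alone in place of TMM, and P2rx4 was called in all 19 alternatives.

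P2rx7, the channel that opens at high ATP and leads to release of interleukin-1β, was not called. It had 211, 192 and 177 CPM in WT and 166, 138 and 142 CPM in IRF8KO. The groups did not overlap as measured, but did once the GC and length trends described above were taken out, at 188, 172 and 190 CPM in WT and 182, 140 and 151 CPM in IRF8KO. The measured means were 193 ± 16.98 and 149 ± 15.3 CPM (± SD, 3 mice each; log2 fold change −0.38, SE 0.26, edgeR quasi-likelihood, Benjamini-Hochberg adjusted p = 0.336). Per exonic length, P2rx4 had 0.637, 0.778 and 1.20 times the reads of P2rx7 in WT and 3.82, 3.40 and 3.56 times in IRF8KO, in order of replicate. This ratio within a library, which no scaling can move, was higher in all 3 IRF8KO libraries than in any WT library.

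Entpd1, the gene of the ectonucleotidase, fell. It had 648, 633 and 464 CPM in WT and 330, 231 and 265 CPM in IRF8KO, with no overlap of the groups. The mean went from 582 ± 102 to 276 ± 49.97 CPM (± SD, 3 mice each), a fitted fall of 2.11-fold (log2 fold change −1.08, SE 0.30, edgeR quasi-likelihood, Benjamini-Hochberg adjusted p = 0.025). This call was lost in 7 of 19 alternatives. It was lost when any 1 library other than WT replicate 3 was left out, with log2 fold changes of −1.21 to −0.96 and adjusted p of 0.063 to 0.141. It was lost as well with the GC and length trend in the fit (−0.39, adjusted p = 0.368), where the corrected levels of 416, 400 and 588 CPM in WT and 493, 227 and 353 CPM in IRF8KO overlapped. That trend was fitted over both groups, so it can also take out part of a difference between them.

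Adora3, the Gi-coupled A3 receptor for adenosine, was nearly absent from the IRF8KO libraries. It had 151, 395 and 175 counts in WT and 0, 0 and 8 in IRF8KO. Scaled, these were 29.4, 28.0 and 24.1 CPM in WT and 0, 0 and 0.868 CPM in IRF8KO, so that the WT libraries lay close together and all IRF8KO counts came from replicate 3. The mean went from 27.2 ± 2.72 to 0.289 ± 0.501 CPM (± SD, 3 mice each; log2 fold change −6.43, SE 0.86, edgeR quasi-likelihood, Benjamini-Hochberg adjusted p = 4.1e-04), and 46 tested genes had a larger fall. With IRF8KO replicate 3 left out, all counts on that side were 0 and the level was at least 157-fold lower, against a floor of 3 counts over the group. Without IRF8KO replicate 2 the log2 fold change was −5.75, and limma-voom gave −7.50. Adora3 shares 20.9% of its exonic length with Tmigd3, which was not called (1.11 ± 0.168 CPM in WT and 2.175 ± 0.853 CPM in IRF8KO, mean ± SD of 3 mice). The files put reads that fall on several genes in a class of their own.

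Adora2a, a Gs-coupled receptor for adenosine, had 1, 0 and 1 counts in WT and 0, 0 and 8 in IRF8KO and was not tested. The IRF8KO over WT ratio of the scaled counts was 3.99, with an exact 95% interval of 0.796 to 38.6 from counting error only.

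**Figure D3:**
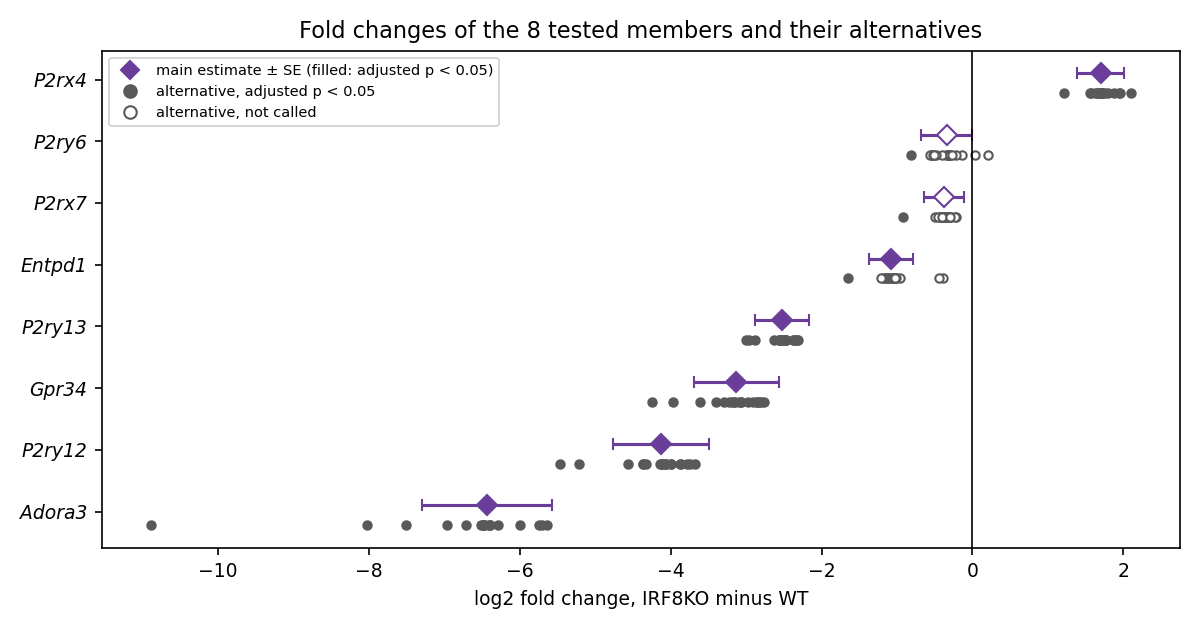
Log2 fold change (IRF8KO minus WT) of the 8 tested members with its standard error (diamonds, filled where called) and, below each, the estimates of the alternative analyses (filled where called, open where not). P2rx4 lies to the right of 0 throughout, P2ry12, P2ry13, Gpr34 and Adora3 to the left with every point filled, and Entpd1 has open points.

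Levels of different genes were compared after division by exonic length. In WT, the order of mean CPM per kb was P2ry13 (371), P2ry12 (333), P2ry6 (247), Gpr34 (205), Entpd1 (104), P2rx7 (32.4), P2rx4 (27.7) and Adora3 (7.28), with Adora2a and P2ry14 at or under 0.0362. The ranges of P2ry13, P2ry12, P2ry6, Gpr34 and Entpd1 overlapped from each to the next, as did those of P2rx7 and P2rx4. Inside a library, Gpr34 stood below P2ry13 and P2ry12 and above Entpd1 in all 3. The other overlapping pairs next to each other in this order changed places between libraries. Entpd1 stood above P2rx7 and P2rx4 above Adora3 in all 3 libraries with no overlap. In IRF8KO the order was P2ry6 (195), P2rx4 (89.9), P2ry13 (64.5), Entpd1 (49.4), P2rx7 (24.9), Gpr34 (23.4) and P2ry12 (19.0), with Adora2a, Adora3 and P2ry14 at or under 0.0945. P2ry6 stood above P2rx4 in all 3 libraries with no overlap. P2rx4, P2ry13 and Entpd1 overlapped from each to the next. So did P2rx7, Gpr34 and P2ry12, though Gpr34 stood above P2ry12 in each of the 3 libraries.

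The make-up of the purinergic transcripts therefore differed. As a share of the members' reads per exonic length, P2ry12 accounted for 28.0%, 28.9% and 15.6% of WT and for 1.86%, 8.13% and 2.04% of IRF8KO, in order of replicate. P2rx4 made up 1.59%, 1.64% and 3.43% in WT and 20.9%, 16.3% and 20.9% in IRF8KO. P2ry6 made up 14.2%, 12.3% and 33.9% in WT and 47.5%, 33.8% and 44.1% in IRF8KO, so that WT replicate 3 reached the lowest IRF8KO library. Mean shares of P2ry13 went from 27.8 ± 1.18% to 13.8 ± 4.89%, and those of Gpr34 from 14.8 ± 5.29% to 4.95 ± 3.63% (± SD, 3 mice each). Entpd1 held 7.88 ± 0.412% of WT and 10.6 ± 1.79% of IRF8KO (± SD, 3 mice each), a higher share of a smaller sum. The members took 0.582%, 0.572% and 0.296% of all gene counts in WT and 0.147%, 0.187% and 0.141% in IRF8KO; these last shares also move with the counts of Apoe.

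**Figure D4:**
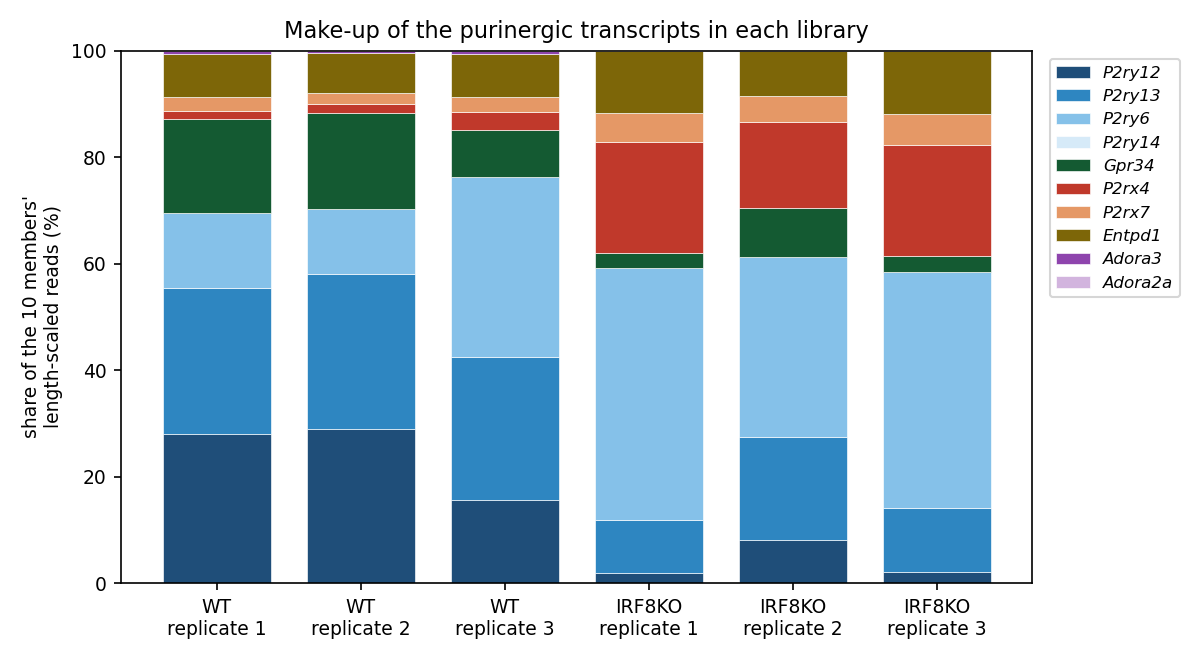
Stacked bars of each member's share (%) of the summed length-scaled reads of the 10 members in each library. P2ry12, P2ry13 and Gpr34 fill most of WT replicates 1 and 2, whereas P2ry6 and P2rx4 take 47.5% and 20.9% in IRF8KO replicate 1.

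The genes whose profile over the 6 libraries was most like that of P2ry12 were looked for among the 6173 tested genes whose mean reached 10 CPM. The measure was the root mean square difference in log2 CPM after each gene was centred on its own mean. The 5 nearest were Gpr155, a lysosomal sensor of cholesterol (0.273), Slc1a3, a glutamate transporter (0.410), Pros1, which encodes the anticoagulant protein S (0.433), E230029C05Rik (0.455) and Ceacam1, a cell adhesion receptor (0.504). Slc1a3 went from 152 ± 58.5 to 8.76 ± 6.54 CPM and Pros1 from 160 ± 63.3 to 12.7 ± 8.43 CPM (± SD, 3 mice each). Among the members Gpr34 ranked 7 (0.591) and P2ry13 ranked 51 (1.03). The likeness uses the difference between the groups and the spread inside them together, and the 6 libraries share their GC trends, so it is a description.

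The chromosome 3 cluster also holds genes outside the set. P2ry13 lies 5.39 kb from P2ry12, and P2ry14 lies 54.3 kb beyond P2ry13. Gpr171, 12.03 kb beyond P2ry14, had 0 counts in the 3 WT libraries and 16, 42 and 25 in IRF8KO and was at least 27.6-fold higher, against a floor of 3 counts over the group. It passed the filter through its IRF8KO counts alone, so it could be called in that direction only. Med12l, which spans the cluster on the other strand, was not called (12.1 ± 7.54 in WT and 3.92 ± 1.15 CPM in IRF8KO, mean ± SD of 3 mice; adjusted p = 0.084), with 17.3% of its exonic length shared with other genes, P2ry12 among them. Igsf10 was at or near 0 and was not tested.

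**Figure D5:**
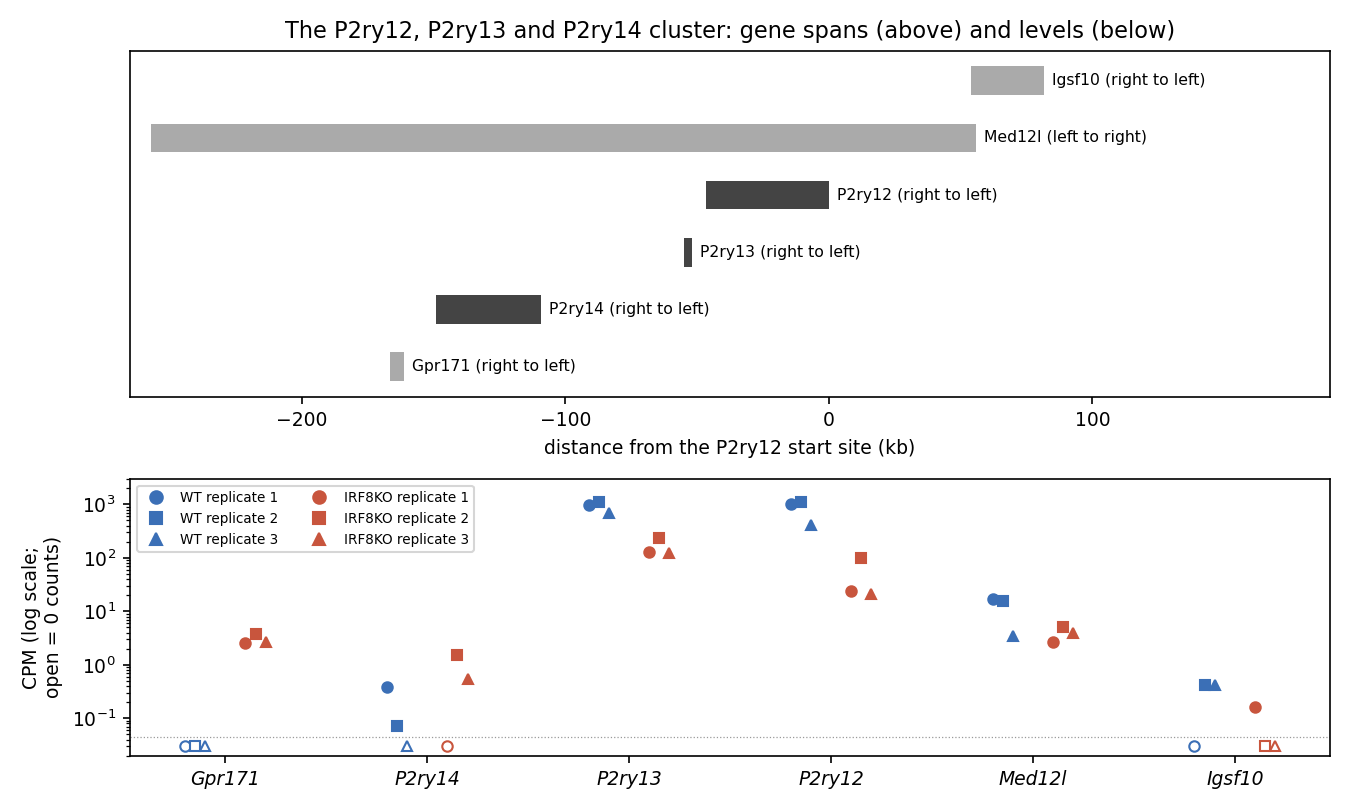
Above, spans of P2ry12 and of 5 genes around it by distance from the P2ry12 start site (kb), members in black, with the direction of transcription; below, CPM (log scale, open symbols for 0 counts) of the same genes in each library, WT in blue and IRF8KO in red. P2ry12 and P2ry13 fall in IRF8KO, while Gpr171 is counted in the IRF8KO libraries only.

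Of the neighbours at the other loci, 3 were called and 8 were tested without a call, where 19.1% of all tested genes were called. Camkk2, a kinase gene 1.43 kb beyond P2rx4, rose with it, from 30.5 ± 2.85 to 71.0 ± 17.5 CPM (± SD, 3 mice each; log2 fold change 1.22, edgeR quasi-likelihood, Benjamini-Hochberg adjusted p = 0.012), while Anapc5 beyond it was not called. Tctn3, a gene of the primary cilium that starts 0.133 kb from Entpd1 on the opposite strand, rose from 19.0 ± 5.36 to 61.6 ± 15.6 CPM (log2 fold change 1.69, adjusted p = 0.0042) where Entpd1 fell. Rap1a, a small GTPase gene 69.5 kb from Adora3, fell from 11.1 ± 4.003 to 3.02 ± 1.83 CPM (log2 fold change −1.85, adjusted p = 0.044), and reached the minimum of the filter in every library of WT and not of IRF8KO. The other neighbours tested and not called were P2ry2 and Fchsd2 beside P2ry6, Tmigd3 and Atp5f1 beside Adora3, Specc1l and Gucd1 beside Adora2a, and Cask, which overlaps Gpr34 on the other strand.

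Beyond the members, 68 genes of the pathway were listed, of which 47 were tested and 11 called, 7 higher and 4 lower (23.4%, beside 19.1% of all tested genes). With library size alone in place of TMM, 5 were higher and 9 lower, and without WT replicate 3 the called genes numbered 20. Other nucleotide receptors were sparse. Of 8 other P2 receptors 2 were tested and not called in the edgeR fit: P2rx1 had 21.6 ± 10.6 CPM in WT and 46.4 ± 10.02 CPM in IRF8KO (adjusted p = 0.070) and P2ry2 had 1.05 ± 1.10 and 5.66 ± 2.84 CPM (adjusted p = 0.101, ± SD, 3 mice each). P2ry1, P2ry4 and P2rx2 had 0 counts in every library. Of the other adenosine receptors, Adora1 was tested and not called (3.64 CPM in WT and 2.002 CPM in IRF8KO) and Adora2b was not tested. Of 6 genes for receptors and enzymes of lysophosphatidylserine, the ligand of Gpr34, the hydrolase genes Abhd12 and Abhd16a were tested and not called. The receptor gene P2ry10b, not tested, had 26, 74 and 0 counts in WT and 0 in the 3 IRF8KO libraries.

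Among 9 other surface enzymes of nucleotides, 3 were tested and 2 were called, both higher; these 2 passed the filter through their IRF8KO counts alone, so they could be called in that direction only. Nt5e (CD73), which turns AMP into adenosine, had 0 counts in WT and 12, 57 and 32 in IRF8KO, and was at least 33.6-fold higher against a floor of 3 counts over the group. Cd38, an enzyme that consumes NAD, had 0 counts in WT and 50, 230 and 181 in IRF8KO, and was at least 153-fold higher on the same floor. Both have a mean under 10 CPM and were named after their values were seen; the adjusted p were 0.0037 and 1.9e-04 (edgeR quasi-likelihood, Benjamini-Hochberg). Entpd5, Entpd6 and Entpd7, intracellular relatives of Entpd1, were tested and not called.

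For adenosine uptake and metabolism 7 of 8 genes were tested, with 1 higher and 1 lower. Slc29a3, a nucleoside transporter of lysosomes, fell from 553 ± 46.7 to 172 ± 32.7 CPM (log2 fold change −1.68, adjusted p = 0.0020). Ada, adenosine deaminase, rose from 4.56 ± 1.42 to 23.6 ± 4.05 CPM (log2 fold change 2.35, adjusted p = 0.0025). Of 4 genes for release of nucleotides 3 were tested, and Panx1, a channel that lets ATP out of cells, rose from 17.1 ± 4.34 to 51.0 ± 2.39 CPM (± SD, 3 mice each in this paragraph; log2 fold change 1.59, edgeR quasi-likelihood, Benjamini-Hochberg adjusted p = 0.0038). The Panx1 call was lost with library size alone in place of TMM (adjusted p = 0.057).

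Of 20 genes that couple the receptors to the cell 19 were tested, 2 higher and 2 lower. Kcnn4, a calcium-activated potassium channel, rose from 10.9 ± 3.91 to 63.9 ± 19.1 CPM (log2 fold change 2.54, adjusted p = 7.0e-04), while Kcnk13, the potassium channel that P2Y12 opens in microglia, was not called (202 ± 71.3 and 147 ± 35.5 CPM). Gna11, a Gq-family subunit, went from 38.9 ± 13.03 to 80.4 ± 4.15 CPM (log2 fold change 1.05, adjusted p = 0.030). Pik3cg and Pik3r5, the catalytic and a regulatory subunit of PI3Kγ, a kinase downstream of Gi-coupled receptors, fell from 95.7 ± 24.6 to 29.1 ± 16.6 CPM and from 222 ± 45.04 to 87.7 ± 36.3 CPM (log2 fold changes −1.71 and −1.34, adjusted p = 0.010 and 0.016). The Gna11 call was lost in 6 alternatives, with library size alone and without any 1 library other than WT replicate 3, the Pik3cg call without IRF8KO replicate 1 or 3, and the Pik3r5 call without IRF8KO replicate 2 or 3. The highest adjusted p were 0.139, 0.086 and 0.118 in that order. Gnai2, the most abundant Gi subunit, had 711 CPM in WT and 761 CPM in IRF8KO and was not called. Values are means ± SD with n = 3 each and tests are edgeR quasi-likelihood with Benjamini-Hochberg adjustment.

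All 7 genes of the inflammasome downstream of P2X7 were tested, 1 higher and 1 lower. Il1b, which encodes interleukin-1β, rose from 2.24 ± 1.32 to 29.1 ± 14.7 CPM (log2 fold change 3.63, SE 0.56, adjusted p = 9.9e-04). Nek7, the kinase that NLRP3 needs, fell from 29.1 ± 12.9 to 5.18 ± 1.27 CPM (log2 fold change −2.49, SE 0.45, adjusted p = 0.0030; ± SD, 3 mice each; edgeR quasi-likelihood, Benjamini-Hochberg). Over the alternatives the log2 fold change of Il1b ran from 3.04 to 4.26 and that of Nek7 from −3.06 to −1.59, each called in all alternatives that tested it. Nlrp3, Pycard, Casp1, Gsdmd and Il18 were not called.

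Several members are also made by other cells, whose markers were counted in the same libraries. Border-associated macrophages line the vessels and coverings of the brain. Of their 10 listed markers 8 were tested and all 8 were higher in IRF8KO, 4 of them (Cd163, F13a1, Ms4a7 and Clec4n) with at most 22 counts in a WT library, so that they passed the filter through their IRF8KO counts and could be called in that direction only. The list had summed levels of 609 to 837 CPM in WT and 4037 to 5314 CPM in IRF8KO; Stab1, Pf4 and Ms4a7 were the most abundant. Lyve1 and Cd209f had 0 counts in all 6 libraries. Mrc1 rose from a mean of 3.12 CPM in WT to 39.3 CPM in IRF8KO. Cd163 had 0 counts in WT and 54, 139 and 69 in IRF8KO. P2rx4, Nt5e, Cd38 and the other genes that rose moved in the same direction, and the part of such cells in these results was not tested. Other lists, at lower levels, differed as well. Astrocyte markers summed to 2.83 to 11.6 CPM in WT against 22.3 to 46.2 CPM in IRF8KO, and neuronal markers to 0.354 to 4.55 against 16.4 to 24.7 CPM. Of the 6 tested, Gfap, Aldh1l1, Slc1a2, Rbfox3 and Syt1 were called higher and Slc17a7 was not called; all but Aldh1l1 reached the minimum of the filter in every library of IRF8KO and not of WT, so the filter favours calls in that direction. Of the oligodendrocyte list Cspg4, which passed the filter through IRF8KO alone and could be called in that direction only, was higher (0.446 and 66.2 CPM), and Mbp and Mag were tested and not called, Mag being at 98.8 CPM in WT and 65.2 CPM in IRF8KO. Of the dendritic cell list Zbtb46 alone was tested and was called higher (4.62 and 25.7 CPM), while Flt3 had 2 to 24 counts in WT and 5 to 9 in IRF8KO, Xcr1 had 0 to 7 and 0 to 2, and Cd209a and Clec9a had 0. Red blood cell genes summed to 0 to 52.9 CPM in WT and 49.3 to 406 CPM in IRF8KO with the 4 tested and not called, and endothelial genes to 18.6 to 30.2 and 1.77 to 9.87 CPM. Of the latter Pecam1, at the minimum of the filter in every library of WT and not of IRF8KO, was called lower (19.1 and 1.95 CPM), while Flt1, not tested, had 0 counts in WT and 5, 88 and 59 in IRF8KO. The part of these cells was not tested either. Platelets carry P2Y12 as well: their 7 markers summed to 106 to 158 CPM in WT and 48.9 to 58.0 CPM in IRF8KO, mostly Itgb3 and Gp9. Itgb3 was called lower, at 81.7 CPM in WT and 19.0 CPM in IRF8KO. Gp9 was tested and not called, at 42.8 CPM in WT and 31.4 CPM in IRF8KO. Of the 7, Gp6 had 0 counts in all 6 libraries, and Ppbp had 0 in WT and 5, 26 and 10 in IRF8KO. The part of platelets in the P2ry12 level was not tested.

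Mast cells carry A3 receptors, and all 5 of their markers had 0 counts in the WT libraries, while in IRF8KO Kit had at most 2 and the others had 0. Some monocyte and neutrophil genes set IRF8KO replicate 2 apart: S100a8, S100a9 and Chil3 had 1350, 637 and 386 counts there and at most 5 in any other library. The 6 monocyte markers summed to 42.1 CPM in that library and to 0.276 to 1.42 CPM in the others, and none passed the filter; Ccr2, Vcan and F10 had 0 counts in that library. The neutrophil markers summed to 1287, 1181 and 871 CPM in the IRF8KO libraries, in order of replicate, and to 651 to 999.6 CPM in WT, mostly Csf3r, and Cxcr2 had 0 counts in WT and 10, 46 and 16 in IRF8KO. IRF8KO replicate 2 had the most P2ry12, P2ry13, Gpr34 and P2ry14 of its group. The part of those cells in the values of this library was not tested; without it P2ry12, P2ry13 and Gpr34 had log2 fold changes of −5.22, −2.88 and −3.97.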

How the data were processed

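Per the labels, 6 libraries of sorted microglia were sequenced, 3 WT and 3 IRF8KO. The authors deposited raw counts for each gene in STAR's output layout: a column that ignores strand, used here, and 2 stranded columns. The submitters' processing notes name STAR 2.5.2b, Picard 2.17.11, bcl2fastq, Subread, featureCounts and mm10, without their roles; the annotation release is not given in the sources used here. Reads outside any gene made up 2.44% to 7.70%, reads on several genes 8.20% to 10.8%, and these were left out of library sizes and tests. No 2 files held the same library.

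Identifiers were matched to GENCODE M21 (49326 of 49585). The test was that of edgeR 4.0.16 under R 4.3.3 (default filter with a minimum count of 10, TMM scaling, quasi-likelihood F test on genotype, Benjamini-Hochberg adjustment over 11041 genes, called under 0.05), which was tested on simulated data. Alternatives were other scalings, DESeq2 1.42.0, limma-voom (limma 3.58.1), other filters, the stranded columns, a GC and length offset, a replicate block and leaving out each library. Lists were described by counts and medians. Named were all members, called pathway genes whose mean reached 10 CPM, tested neighbours, the 5 genes most like P2ry12 and leading markers. The members and lists were chosen with earlier results of these data known. PCR copies could not be removed, so intervals cover counting error only. The gene Pnp was listed but not matched and is not analysed here.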

Additional observations from a re-analysis of the deposited data

How the results depend on the processing

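Each of 19 alternatives kept P2rx4 as the 1 member called higher, and 4 to 7 members were called lower, 5 in the main analysis. P2ry12, P2ry13 and Gpr34 were called in all 19, and Adora3 in the 18 that tested it; a filter of 10 counts in every library removed it. Library size alone added P2ry6 (−0.81) and P2rx7 (−0.92), made Irf8 called (−0.90, edgeR adjusted p = 0.0076) and moved the all-gene median from −0.11 to −0.61, the member median to −2.33 and the share of higher calls from 50.5% to 25.4%. The member median was −1.42 with the GC and length offset, −1.43 with that offset and the replicate block, −1.11 with the filter of 10 counts and −1.69 to −1.92 when 1 library was left out. P2ry6 ran from −0.52 to 0.03 with 1 library left out, reversed without WT replicate 3, and went to 0.20 without that library and IRF8KO replicate 2, where Irf8 reversed to 0.046 and the member median was −1.99. Called genes numbered 2109, 910 to 4003 with 1 library left out (4003 without WT replicate 3, 910 without IRF8KO replicate 3, 1147 without IRF8KO replicate 1, 1171 without WT replicate 2 and 1308 without WT replicate 1) and 5228 without WT replicate 3 and IRF8KO replicate 2, a setting chosen after the data were seen; called pathway genes numbered 11, 8 to 20 and 26. Without division by length the P2rx4 share was 5.18% in WT and 33.6% in IRF8KO. Where no reason is built into a setting, the cause was not tested.

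The labels number the replicates 1 to 3 in both groups. Deviations of same-numbered libraries from their group means correlated at −0.26, 0.33 and 0.11, and not every library correlated best with its own number, so the numbers were not taken as pairs. With the replicate block 2353 genes were called, among them the same 5 members lower and 1 higher. With 3 mice a group and 3658917 to 11098363 counts a library, P2ry14 and Adora2a were too sparse to test.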
